A study of Mus musculus with 8 samples.

Results

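The CC chemokines are small secreted proteins that draw leukocytes along a concentration gradient through G protein-coupled receptors. Macrophages release many of them after lipopolysaccharide (LPS), a bacterial endotoxin sensed by Tlr4, and the ligands sort into attractants of monocytes, of T and natural killer (NK) cells, and of eosinophils. The 10 CC chemokines described here were Ccl2, Ccl3, Ccl4, Ccl5, Ccl6, Ccl7, Ccl8, Ccl9, Ccl12 and Ccl24, chosen by name and found through the transcript that the array assigns to each probe. They make up 10 of the 20738 features (genes and unnamed probes) tested. Each had 1 probe, and all 10 passed the filter on dim probes.

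RNA came from macrophages of male mice, and every mouse had received LPS. The EP2KO group lacked EP2, the prostaglandin E2 receptor encoded by Ptger2, and the WT group was wild type. Each group had 4 one-colour Agilent arrays, numbered 1 to 4. The labels give no strain, age, LPS dose or time, tissue of origin, way of isolating the cells or way in which EP2 was removed. They do not say either that each array stands for a separate mouse, so the p-values measure the spread between these samples, which may be technical. No mouse without LPS was included, and a baseline for these LPS-responsive genes was therefore not measured.

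Of the 2 slides, each scanned on its own day, slide 1 held replicates 1 and 2 of both groups and slide 2 held replicates 3 and 4. On both slides the EP2KO arrays took positions 3 and 4 and the WT arrays positions 1 and 2, and the effects of genotype and of array position cannot be told apart. The slides separated on the first principal component, which carried 61% of the variance. Between 25566 and 32161 of 39429 gene probes were well above background per array, and 0 spots were saturated. Ptger2, the targeted gene, had a relative signal of 0.357, 0.287, 0.323 and 0.225 on EP2KO 1 to 4, against 0.972, 1.12, 0.899 and 1.00 on WT 1 to 4 (log2 difference -1.76 ± 0.17, SE, limma adjusted p = 0.0616, and 0.0328 with the slide as a block). The Ptger2 probe was well above background on 4 of 4 EP2KO and 4 of 4 WT arrays. The sources used here do not say whether this probe falls inside the deletion. The 7 measured macrophage identity markers were above background on all 8 arrays, with a summed relative signal of 253 to 309 in EP2KO and 193 to 326 in WT, while Cd68 was not matched to a probe.

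Values below are relative signals, the background-corrected intensity divided by the array's 75th percentile, or differences of their log2. A gene was called when its limma adjusted p, taken over all 20738 features with the Benjamini-Hochberg method, was under 0.05. Differences are EP2KO minus WT unless slides are named, and then slide 2 minus slide 1. Levels of different genes are not compared, because each rests on its own probe. The number of arrays, 4 per genotype and 2 per genotype and slide, limits the precision of every value.

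In the mouse genome 9 of the 10 genes lie on chromosome 11 in a pair of clusters. Ccl2, Ccl7, Ccl12 and Ccl8 follow each other there, with only Ccl11 between Ccl7 and Ccl12. Ccl5, Ccl9, Ccl6, Ccl3 and Ccl4 form an unbroken run further along. Ccl24 lies on chromosome 5 beside Ccl26. Promoters of 5 members were matched in the RefSeq table of build GRCm38.p6. Those of Ccl12 and Ccl8 are shown because these neighbouring genes had 2 of the 4 largest differences on slide 2, and those of Ccl9 and Ccl6 because these neighbours had the smallest spread of the 10 genes. Each line gives the 250 bases before the transcript start on the gene's strand, 5′ to 3′, at chr11:82101595-82101844 (plus strand) for Ccl12, chr11:82114935-82115184 (plus strand) for Ccl8, chr11:83578637-83578886 (minus strand) for Ccl9 and chr11:83593088-83593337 (minus strand) for Ccl6. Capitals mark motif matches.
Ccl12: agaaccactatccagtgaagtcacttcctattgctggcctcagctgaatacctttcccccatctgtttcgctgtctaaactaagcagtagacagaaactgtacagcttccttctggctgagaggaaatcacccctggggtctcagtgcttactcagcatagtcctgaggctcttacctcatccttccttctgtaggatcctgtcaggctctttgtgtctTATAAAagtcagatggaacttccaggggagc
Ccl8: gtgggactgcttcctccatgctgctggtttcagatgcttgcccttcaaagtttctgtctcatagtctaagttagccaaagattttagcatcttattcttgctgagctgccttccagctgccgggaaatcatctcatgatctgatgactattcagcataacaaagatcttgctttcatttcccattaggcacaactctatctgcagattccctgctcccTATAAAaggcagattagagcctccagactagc
Ccl9: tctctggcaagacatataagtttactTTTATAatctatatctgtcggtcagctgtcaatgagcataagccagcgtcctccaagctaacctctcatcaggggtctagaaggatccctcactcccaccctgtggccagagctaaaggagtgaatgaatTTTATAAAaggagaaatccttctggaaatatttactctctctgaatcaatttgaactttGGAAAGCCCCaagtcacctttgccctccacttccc
Ccl6: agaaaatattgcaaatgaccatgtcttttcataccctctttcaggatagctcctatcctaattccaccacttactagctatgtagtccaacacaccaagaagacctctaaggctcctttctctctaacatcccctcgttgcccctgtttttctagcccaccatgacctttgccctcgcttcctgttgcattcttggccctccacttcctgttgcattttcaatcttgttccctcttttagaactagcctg

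Each promoter was searched on both strands for TATAAA, the AP-1 motif TGACTCA, the interferon-response motif (GAAA and GAAA with any 2 bases between) and the NF-kB site. TATAAA began 31 bases before the start in Ccl12 and 32 bases before it in Ccl8. In Ccl9 the same letters lay 92 bases before the start, overlapping a match on the other strand at 94, and again on the other strand at 224. Ccl9 also held an NF-kB site on the other strand, 35 bases before the start. None of the 4 motifs was found in the windows of Ccl6 and Ccl3. Over all 32851 promoters of the table, 12.368% held TATAAA, 7.251% the NF-kB site, 4.463% the AP-1 motif and 2.977% the interferon-response motif. A match describes the letters only. Of the 10 pairs among the 5 matched promoters, Ccl8 and Ccl12 had the highest identity in a global alignment, 56.9%, within a range of 48.1% to 56.9%. Ccl6 and Ccl9, identical in 146 of 292 aligned positions, shared the longest identical run, gccctccacttcc.

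**Figure D1:**
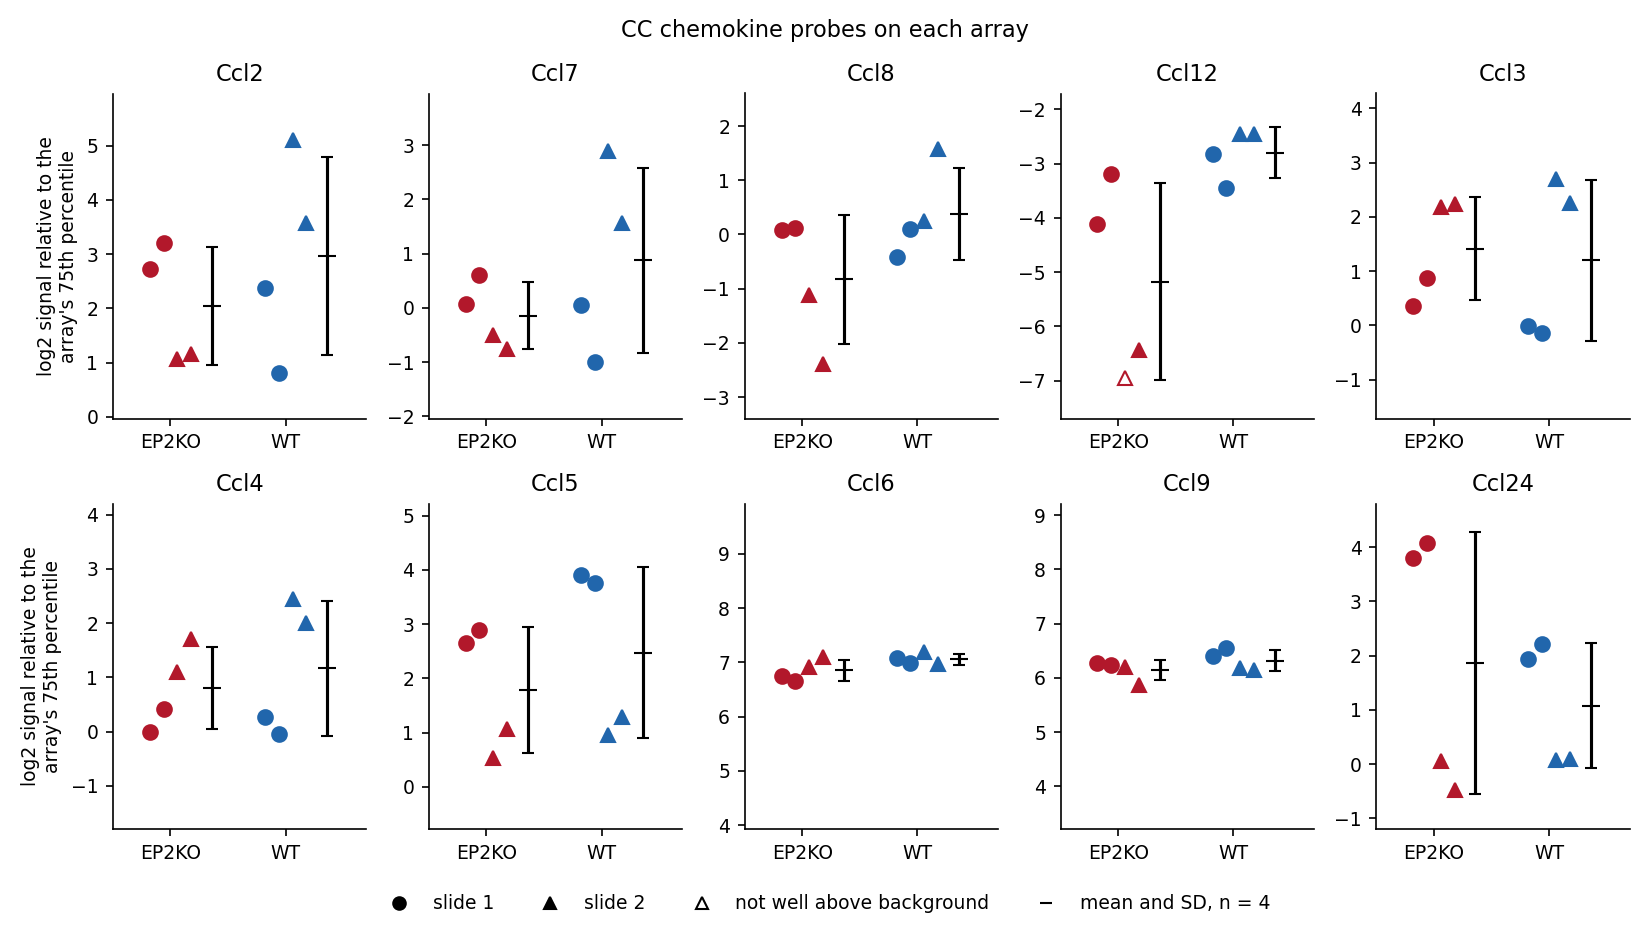
Each panel shows 1 chemokine, with the log2 signal relative to the array's 75th percentile on the y axis and the EP2KO arrays left of the WT arrays. Circles are slide 1, triangles slide 2, the open triangle is the value not well above background, and the bar gives the mean and SD (n = 4). In all 10 panels the EP2KO and WT points overlap, and Ccl3, Ccl4, Ccl5, Ccl9 and Ccl24 split by slide. Between slides 43.2% of all features were called by limma, and the share that split without overlap is not reported here.

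Over all 8 arrays none of the 10 chemokines was called between EP2KO and WT, where 0.00964% of all features were (2 of 20738). The adjusted p was 1.0 for each of the 10 by limma, at an unadjusted p under 0.05 only Ccl12 passed, and the unadjusted share of all features was 1.98%. Of the 10 genes, 2 (Ccl3 and Ccl24) had a higher mean in EP2KO and 8 a lower one, with a median log2 difference of -0.53. Across all features tested 43.4% were higher and the median was -0.03. With median scaling the all-feature median moved to 0.11 and the list median to -0.39, so the list still lay below it. The EP2KO and WT values of all 10 genes overlapped, against 1.39% whose groups did not among the 20707 features with a value on every array. With the slide as a block none of the 10 was called either (background 0.0193%). With the replicate number as a block 0 of all features were called by limma, and at an unadjusted p under 0.05 Ccl5 (0.0196) and Ccl12 (0.0401) passed. With the slide as a block Ccl5 had an unadjusted p of 0.0114 (adjusted p = 0.437) and Ccl12 one of 0.0145 (adjusted p = 0.475). The share of all features with an unadjusted p under 0.05 is not reported here for either block, so these unadjusted values have no background.

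The genotype differences ran differently on the slides for several members, and are given for each slide from 1 fit over the 4 groups of genotype and slide. Slide 1 had 4 genes with both EP2KO values above both WT values (Ccl2, Ccl3, Ccl7 and Ccl24), 3 below (Ccl5, Ccl6 and Ccl9) and 3 overlapping, where 15.6% of all features were above and 33.9% below. None of the 10 was called on slide 1 (background 0.0193%), and the list median was 0.18, against -0.09 over all features. On slide 2 the list median was -0.57, against 0.05 over all features. All 10 differences were negative, where 56.7% of all features were higher in EP2KO, although those of Ccl3, Ccl6 and Ccl9 turned positive with median scaling. There 7 genes lay wholly below WT (Ccl2, Ccl3, Ccl4, Ccl7, Ccl8, Ccl12 and Ccl24), 0 above and 3 overlapped, where 21.4% of all features were below and 29.4% above. Only Ccl12 was called on slide 2, where 0.94% of all features were called and 0.825% were called lower.

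**Figure D2:**
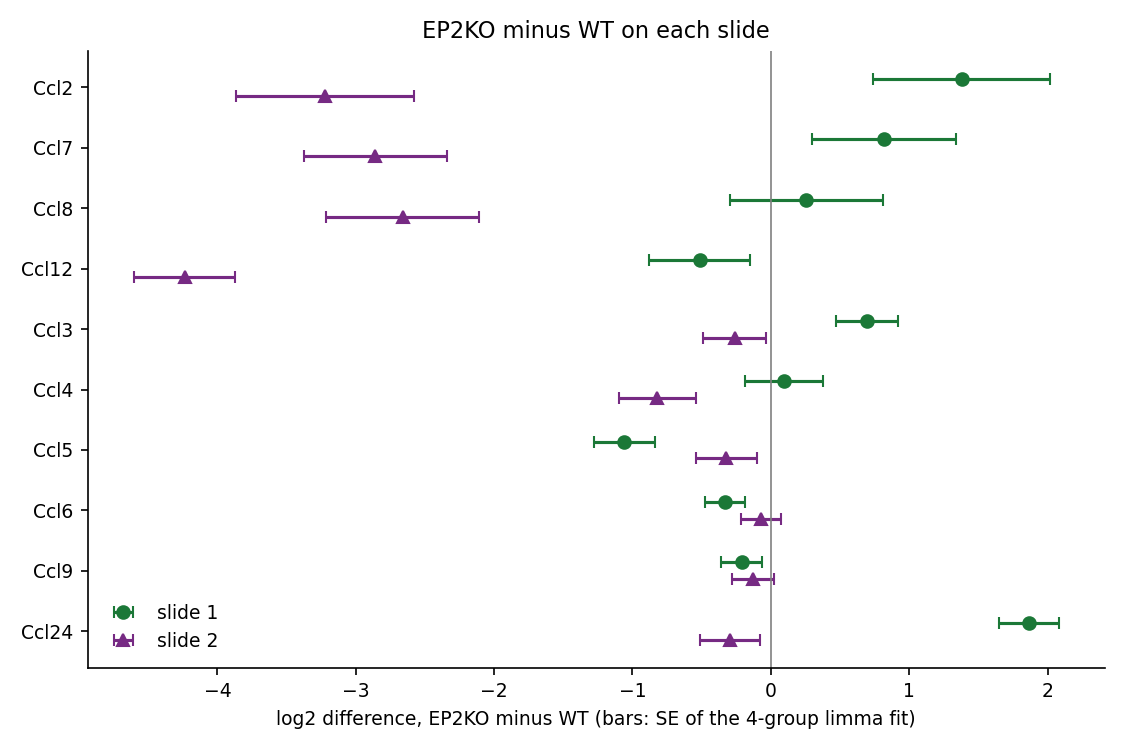
Log2 differences, EP2KO minus WT, are on the x axis for each of the 10 chemokines, with slide 1 as circles and slide 2 as triangles. Bars are the SE of the limma fit over the 4 groups of 2 arrays each. Ccl2, Ccl7, Ccl8 and Ccl12, the last with 1 of 2 EP2KO arrays well above background there, lie between -2.66 and -4.24 on slide 2 and between -0.51 and 1.38 on slide 1. The small slide 2 differences of Ccl3, Ccl6 and Ccl9 change sign with median scaling.

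Among the attractants of monocytes, Ccl2, also called MCP-1, is the main ligand of Ccr2 and draws inflammatory monocytes out of the bone marrow and into tissue. Its relative signal was 6.65, 9.26, 2.10 and 2.24 on EP2KO 1 to 4, against 5.17, 1.76, 34.5 and 11.9 on WT 1 to 4. The WT arrays of slide 2 held the highest values and WT 2 the lowest, so the groups overlapped. Ccl2 was the only member with 10 spots per array, and their log2 SD within an array was 0.0392 to 0.0968, far below the spread between arrays (SD 1.09 in EP2KO and 1.82 in WT, n = 4). Over 8 arrays the difference was -0.92 ± 0.94 (SE), and it ran from -1.64 without WT 2 to -0.21 without WT 3. It was 1.38 ± 0.64 on slide 1 (adjusted p = 0.413) and -3.22 ± 0.64 on slide 2, a 9.33-fold lower signal in EP2KO that missed the threshold (adjusted p = 0.0800 by limma, and 0.0442 when either WT array of slide 1 was left out). Without WT 3 the slide 2 difference was -2.45 (adjusted p = 0.284).

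Ccl7, or MCP-3, binds Ccr2 as well as Ccr1 and Ccr3 and shares the monocyte-attracting role. It had 1.05, 1.53, 0.710 and 0.591 on EP2KO 1 to 4, against 1.03, 0.503, 7.46 and 2.96 on WT 1 to 4. The 2 high arrays were again the WT arrays of slide 2. The difference was 0.82 ± 0.52 on slide 1 (adjusted p = 0.523) and -2.86 ± 0.52 on slide 2, 7.25-fold lower in EP2KO (adjusted p = 0.0683 by limma, and 0.0464 when either WT array of slide 1 was left out). Without WT 3 it was -2.19 on slide 2 (adjusted p = 0.228).

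Ccl8 in the mouse acts through Ccr8 and is a relative of the MCP ligands by sequence. Its relative signal was 1.06, 1.08, 0.461 and 0.192 on EP2KO 1 to 4, against 0.746, 1.08, 1.18 and 2.99 on WT 1 to 4. On slide 1 the groups overlapped, and on slide 2 both EP2KO values lay below both WT values. The difference was 0.26 ± 0.55 on slide 1 and -2.66 ± 0.55 on slide 2 (6.32-fold lower, adjusted p = 0.0867 by limma), and -1.20 ± 0.65 over all 8 arrays (-1.51 without EP2KO 2 to -0.68 without EP2KO 4).

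Ccl12, or MCP-5, is a mouse ligand of Ccr2 and was the only member with an array not well above background. The relative signal was 0.0576, 0.110, 0.00805 and 0.0116 on EP2KO 1 to 4, against 0.141, 0.0913, 0.181 and 0.182 on WT 1 to 4. EP2KO 2 lay above WT 2, and both EP2KO arrays of slide 2 lay below all other arrays. The probe was well above background on 3 of 4 EP2KO arrays and 4 of 4 WT arrays, with EP2KO 3 the exception. The difference over 8 arrays was -2.38 ± 0.83 (unadjusted p = 0.0212, adjusted p = 1.0 by limma). It was -0.51 ± 0.37 on slide 1 (adjusted p = 0.562) and -4.24 ± 0.37 on slide 2, where Ccl12 was called lower in EP2KO (adjusted p = 0.0155 by limma, lower on 2 of 2 EP2KO arrays). Only 1 of these 2 EP2KO arrays was well above background, so the size of this difference is not a measured fold. This call was lost with the replicate number as a block (adjusted p = 0.0584), without WT 3 (0.0891), without WT 4 (0.0617) and without EP2KO 4 (0.0756). The slide 2 difference was -1.64 with the normexp background correction, which raises dim signals by an offset (adjusted p = 0.0225), and other alternatives gave -4.50 to -3.96. With that correction Ccl2 (-3.23), Ccl7 (-2.66) and Ccl8 (-2.33) differed more than Ccl12 on slide 2, and over 8 arrays Ccl12 stood at -0.96.

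Whether the genotype difference differed between the slides was tested as an interaction, slide 2 difference minus slide 1 difference. It was -4.60 ± 0.91 for Ccl2, -3.68 ± 0.73 for Ccl7, -2.92 ± 0.78 for Ccl8 and -3.72 ± 0.52 for Ccl12. The unadjusted p was between 0.0003 (Ccl12) and 0.0089 (Ccl8), and the limma adjusted p was 0.115, 0.115, 0.138 and 0.0822 in that order. The Ccl12 term was -1.36 with the normexp correction, and its signal on EP2KO 3 was not well above background. None of the 10 chemokines was called for this term (background 0.0145%). At an unadjusted p under 0.05 the term took in 6 of the 10, Ccl3 and Ccl24 besides these 4, where 21.1% of all features passed. Without WT 1 the adjusted p of Ccl2, Ccl7, Ccl12 and Ccl24 was 0.0347, 0.0410, 0.0314 and 0.0384. With WT 1 left out 1442 features passed for this term, against 3 with all arrays.

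On slide 2 fibroblast and mesothelial markers were lower in EP2KO, as these 4 genes were. On slide 1 the mean of each marker was higher in EP2KO, but the summed signal of the markers overlapped, with WT 1 above EP2KO 1 and WT 2 lowest. Ccl12 was lower in EP2KO on slide 1 (-0.51) and the Ccl8 groups overlapped. All 12 of the 12 markers were tested. On slide 1 all 12 were higher in EP2KO (median log2 difference 1.01) and on slide 2 all 12 were lower (median -3.32), and 0 of them were called on either slide. Of all features 36.6% were higher in EP2KO on slide 1 and 56.7% on slide 2. Dcn, a matrix proteoglycan of fibroblasts, differed by 0.40 on slide 1 and -4.05 on slide 2. The summed relative signal of the list was 53.2, 88.5, 25.1 and 4.01 on EP2KO 1 to 4, against 85.1, 18.9, 115 and 132 on WT 1 to 4. Postn fell short of the background limit on EP2KO 4, and the other 11 were above it on all arrays. With each slide's mean removed, the list median had an r of 0.776 (Ccl12) to 0.870 (Ccl7) with the 4 genes. For macrophage identity markers it was -0.815 (Ccl8) to -0.649 (Ccl12). For the other lists it ran from -0.827 (mast cells and eosinophils with Ccl12) to 0.642 (neutrophils with Ccl12). Fibroblasts and mesothelial cells are known producers of Ccl2 and Ccl7, and the part of such cells in the slide 2 differences was not tested. In RNA of a whole sample, fewer cells of a type and less RNA per cell cannot be told apart.

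**Figure D3:**
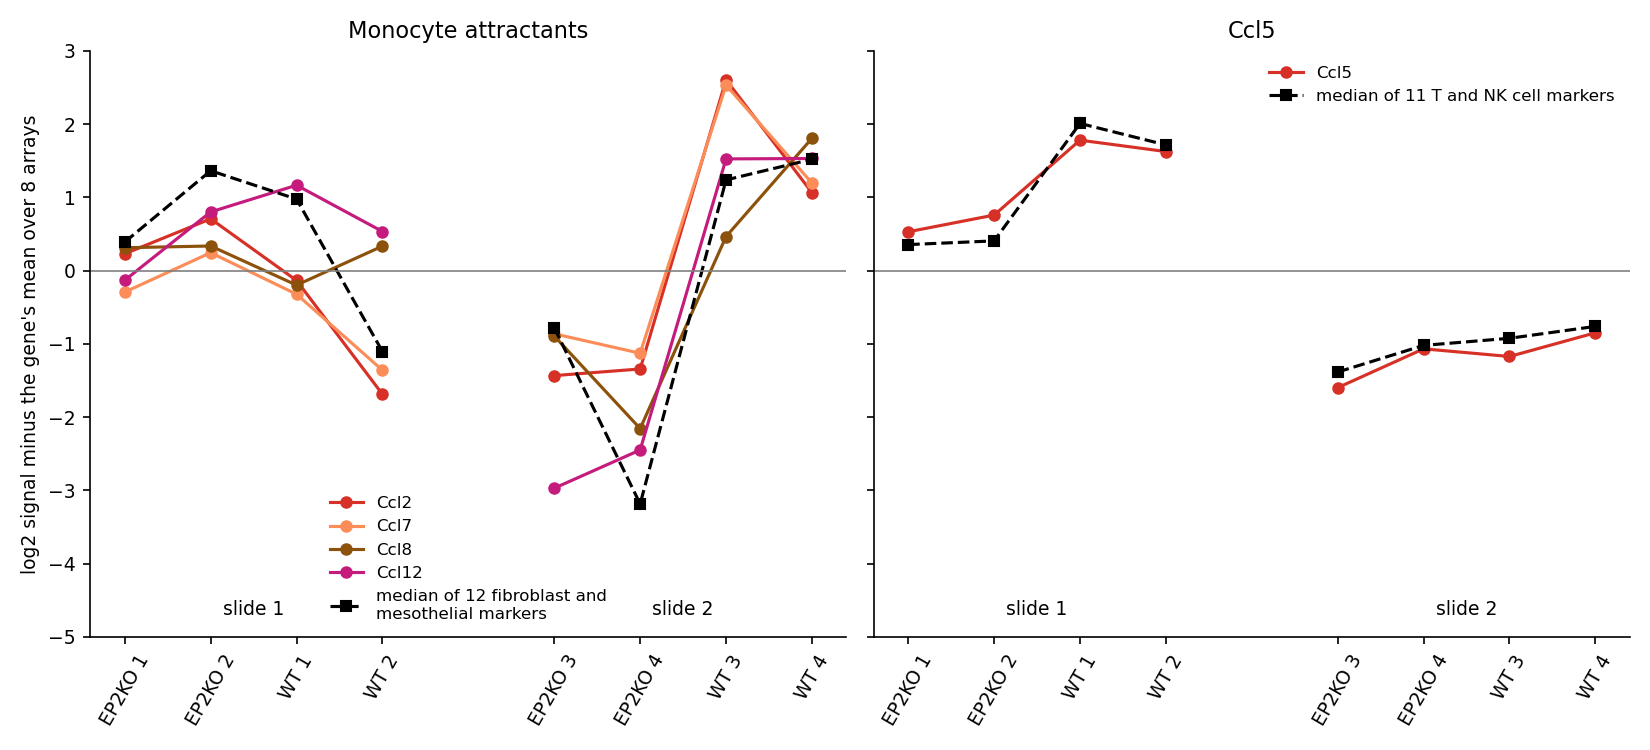
The y axis gives each gene's log2 signal minus its mean over the 8 arrays, and the x axis the arrays, with the EP2KO arrays of a slide left of its WT arrays. On the left are Ccl2, Ccl7, Ccl8 and Ccl12 with the median of the 12 fibroblast and mesothelial markers (dashed), which is lowest on EP2KO 4 at -3.19. On the right is Ccl5 with the median of 11 T and NK cell markers, both highest on the WT arrays of slide 1.

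Ccl3, Ccl4 and Ccl5 differed by slide. Ccl3, or MIP-1 alpha, binds Ccr1 and is released early by activated macrophages. It had 1.28, 1.82, 4.54 and 4.74 on EP2KO 1 to 4, against 0.988, 0.901, 6.50 and 4.76 on WT 1 to 4. All slide 2 arrays lay above all slide 1 arrays in either genotype. The slide difference was 2.08 ± 0.24 (4.23-fold higher on slide 2, adjusted p = 0.0007 by limma, 4 of 4 arrays). The genotype difference was 0.69 ± 0.23 on slide 1 (adjusted p = 0.295), -0.26 ± 0.23 on slide 2 and 0.22 ± 0.78 over all arrays.

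Ccl4, or MIP-1 beta, is an attractant released by activated macrophages and the chromosomal neighbour of Ccl3. Its values were 0.998, 1.33, 2.15 and 3.25 on EP2KO 1 to 4, against 1.20, 0.966, 5.47 and 3.99 on WT 1 to 4. As for Ccl3, slide 2 lay above slide 1 throughout, by 1.66 ± 0.25 (3.16-fold, adjusted p = 0.0023 by limma). The genotype difference was 0.10 ± 0.28 on slide 1 and -0.82 ± 0.28 on slide 2, where both EP2KO arrays lay below both WT arrays without a call (adjusted p = 0.229).

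Ccl5, or RANTES, is made by T and NK cells as well as macrophages and binds Ccr1 and Ccr3. It went the other way between slides, with 6.32, 7.40, 1.45 and 2.09 on EP2KO 1 to 4, against 15.0, 13.5, 1.94 and 2.43 on WT 1 to 4. Slide 2 lay below slide 1 in both genotypes, with a difference of -2.34 ± 0.20 (5.08-fold, adjusted p = 0.0003 by limma). Within slide 1 both EP2KO arrays lay below both WT arrays, with a difference of -1.06 ± 0.22 (unadjusted p = 0.0027, adjusted p = 0.183). On slide 2 the groups overlapped and the difference was -0.32 ± 0.22, and the interaction of 0.74 ± 0.31 was not called (adjusted p = 0.245).

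T and NK cell markers were lower on slide 2, as Ccl5 was, and lower in EP2KO on slide 1. Of 12 markers 11 were tested, Trac not being matched to a probe, and 10 of them were called lower on slide 2 (median -2.33), where 18.2% of all features were. All 11 were lower in EP2KO on slide 1 (median -1.41) and 8 of 11 on slide 2 (median -0.49), with 0 called. Of all features 36.6% were higher in EP2KO on slide 1 and 56.7% on slide 2. Their summed relative signal was 29.2, 19.5, 7.26 and 8.09 on EP2KO 1 to 4, against 39.7, 38.8, 6.18 and 6.89 on WT 1 to 4, and Cd8a fell short of the background limit on EP2KO 3. By likeness over the 8 arrays, with each slide's mean removed, the 3 named genes closest to Ccl5 among 14476 were Klrb1c (r = 0.993), Ctsw (r = 0.982) and Tbx21 (r = 0.975). Klrb1c is an NK cell receptor and one of the 11 markers, Ctsw a protease of cytotoxic lymphocytes and Tbx21 the T-bet transcription factor. With each slide's mean removed, the median of the T and NK cell markers had r = 0.972 with Ccl5. With Ccl5 it was 0.820 for monocyte and 0.758 for dendritic cell markers, and -0.672 (large resident peritoneal macrophages) to 0.464 (B cells) for the other lists. The T and NK cell median also had r = 0.851 with Ccl6 and -0.916 with Ccl24. With the remaining members its r ran from -0.665 (Ccl3) to 0.492 (Ccl9). All 5 dendritic cell markers were also lower in EP2KO on slide 1 (median -0.75). The part of any of these cells in the Ccl5 signal was not tested.

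Ccl6 and Ccl9 are rodent chemokines that bind Ccr1 and are made by myeloid cells without strong stimulation. Ccl6 had 107.1, 101.1, 120.3 and 137.7 on EP2KO 1 to 4, against 135.3, 126.6, 146.3 and 125.0 on WT 1 to 4. The range over all arrays was 0.53 on the log2 scale. The genotype difference was -0.33 ± 0.14 on slide 1, where both EP2KO arrays lay below both WT arrays (adjusted p = 0.391), and -0.07 ± 0.14 on slide 2. The slide 1 value was -0.099 with quantile scaling and -0.059 with the normexp correction. The slide difference was 0.18 ± 0.11 (adjusted p = 0.235), and with the normexp correction it was 0.27 and passed (adjusted p = 0.0316).

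Ccl9 had 77.4, 75.8, 73.8 and 58.7 on EP2KO 1 to 4, against 84.3, 93.2, 72.8 and 71.0 on WT 1 to 4. Slide 2 lay below slide 1 in either genotype, with a difference of -0.26 ± 0.11 that was not called (adjusted p = 0.0854). The genotype difference was -0.21 ± 0.15 on slide 1, where quantile scaling turned it to 0.017, and -0.13 ± 0.15 on slide 2. The SD over the 8 arrays was 0.18 for Ccl6 and 0.19 for Ccl9, and only 17.1% and 19.9% of features had a smaller one (median 0.35). For the other 8 chemokines 87.0% to 97.8% of features had a smaller SD.

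Ccl24, or eotaxin-2, binds Ccr3, attracts eosinophils and is typical of alternatively activated macrophages. Its relative signal was 13.9, 16.9, 1.04 and 0.717 on EP2KO 1 to 4, against 3.83, 4.64, 1.05 and 1.06 on WT 1 to 4. The EP2KO arrays of slide 1 were highest, the WT arrays of slide 1 followed, and the 4 arrays of slide 2 lay close together. Slide 2 lay below slide 1, with a difference of -3.08 ± 0.43 (8.43-fold, adjusted p = 0.0016 by limma). The genotype difference was 1.86 ± 0.22 on slide 1 (3.64-fold higher in EP2KO, unadjusted p = 0.0001, adjusted p = 0.0933 by limma, and 0.0224 with the normexp correction) and -0.29 ± 0.22 on slide 2 (adjusted p = 0.563). Over 8 arrays it was 0.79, from 0.047 without EP2KO 2 to 1.57 without EP2KO 4. The interaction was -2.16 ± 0.31 (adjusted p = 0.0842, and 0.0416 with the normexp correction).

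Of the 8 marker lists beside macrophage identity, 7 had at least 4 members called lower on slide 2, as Ccl24 was, where 18.2% of all features were. Those of resident macrophages and of mast cells and eosinophils are given here. Of 8 markers of large resident peritoneal macrophages, 7 were called lower on slide 2 (median -2.45). Their summed relative signal was 269, 233, 75.2 and 92.0 on EP2KO 1 to 4, against 185, 232, 53.5 and 41.9 on WT 1 to 4. Of 8 tested mast cell and eosinophil markers 7 were called lower on slide 2 (median -2.31), and Epx was above background on 0 arrays. Their sum was 35.3, 35.7, 8.72 and 13.7 on EP2KO 1 to 4, against 26.4, 14.6, 1.91 and 4.60 on WT 1 to 4, and Prg2 was the only tested one not well above background on every array. Between genotypes, 7 of the 8 resident macrophage markers were higher in EP2KO on slide 1 (median 1.75) and 6 of 8 on slide 2 (median 1.13), with 0 called. All 8 mast cell and eosinophil markers were higher in EP2KO on slide 1 (median 0.71, 0 called) and 5 of 8 on slide 2 (median 1.95, 3 called, where 0.94% of all features were). The share of all features higher in EP2KO was 36.6% on slide 1 and 56.7% on slide 2. The part of these cells in the Ccl24 signal was not tested.

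Across slides, with genotype in the model, 2 of the 10 chemokines were called higher on slide 2 (Ccl3 and Ccl4) and 2 lower (Ccl5 and Ccl24), where 43.2% of all features were called, 25.1% higher and 18.2% lower. The count of 4 in 10 is close to that background. These 4 calls held in all 17 alternatives run for the slide comparison. The deposited series table and the mean over a gene's probes could not change the values of these genes, which have 1 probe each. In EP2KO alone slide 2 was called higher for Ccl3 (1.60 ± 0.23) and Ccl4 (1.20 ± 0.28), and lower for Ccl5 (-1.98 ± 0.22), Ccl8 (-1.85 ± 0.55), Ccl12 (-3.04 ± 0.37) and Ccl24 (-4.15 ± 0.22), against a background of 38.8%, and Ccl2 (-1.86 ± 0.64, adjusted p = 0.0624 by limma) passed with the normexp correction (0.0400). In WT alone it was called higher for Ccl2 (2.75 ± 0.64), Ccl3 (2.56 ± 0.23), Ccl4 (2.12 ± 0.28) and Ccl7 (2.70 ± 0.52), and lower for Ccl5 (-2.71 ± 0.22) and Ccl24 (-1.998 ± 0.217), against a background of 32.1%, and Ccl6 (0.047, adjusted p = 0.820) passed with the normexp correction (0.40, adjusted p = 0.0156). With the normexp correction the slide difference of Ccl12 in EP2KO was -0.996 (adjusted p = 0.0072 by limma). The difference between the genotypes in these slide effects is the interaction given above, which was not called for any of the 10. Slide and scan day coincide, and whatever else set the replicates 1 and 2 apart from 3 and 4 cannot be told apart from them.

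**Figure D4:**
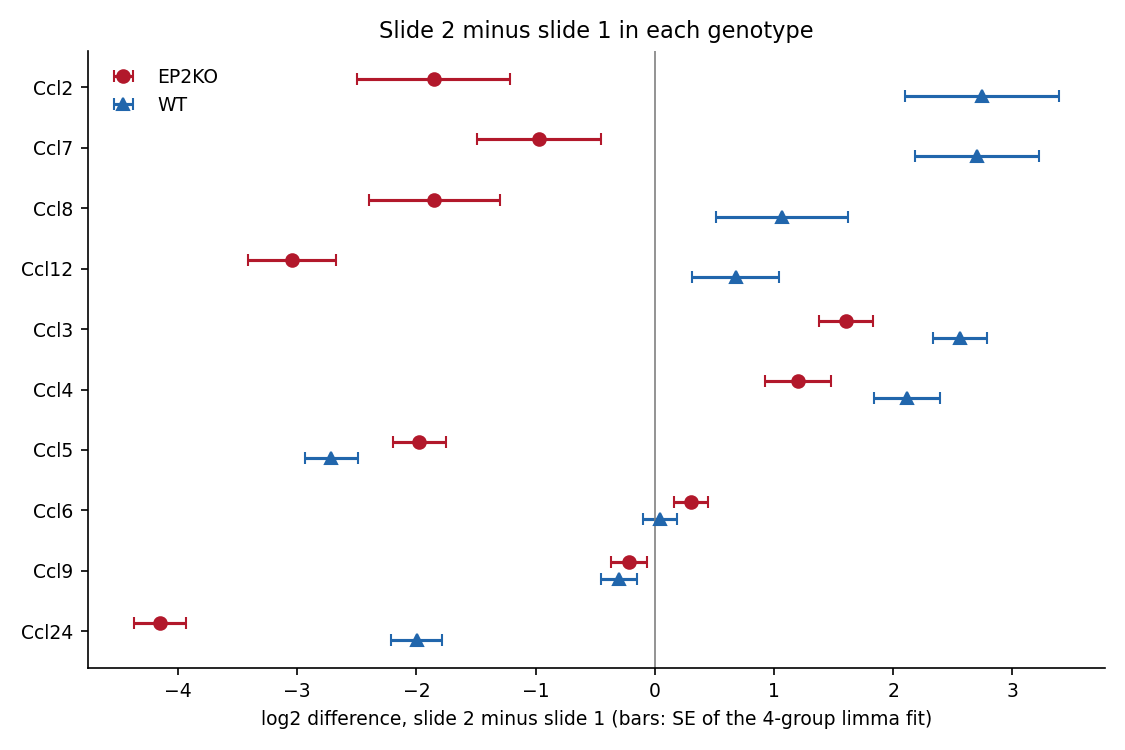
Log2 differences, slide 2 minus slide 1, are on the x axis for each chemokine, with EP2KO as circles above WT as triangles. Bars are the SE of the limma fit over 4 groups of 2 arrays each. Ccl3, Ccl4, Ccl5 and Ccl24 have the same sign in both genotypes, while Ccl2, Ccl7, Ccl8 and Ccl12 are negative in EP2KO and positive in WT.

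By likeness with each slide's mean removed, measured over 8 arrays among 14476 named genes, Ccl2 was closest to Zranb3 (r = 0.995), Ccnd1 (r = 0.995) and Cibar1 (r = 0.989). For Ccl7 the closest were Eln, which encodes elastin (r = 0.990), Ccl2 itself (r = 0.988) and Rpap3 (r = 0.988). Ccl8 was closest to Mylk, a myosin light chain kinase of contractile cells (r = 0.989), Grb14 (r = 0.984) and Hnrnpa0 (r = 0.983), and Ccl12 was close to Plxna4 (r = 0.997) and Vwa1 (r = 0.991). The first of the 3 was Pik3cb for Ccl3 (r = 0.976), Lurap1 for Ccl4 (r = 0.986), Cd27 for Ccl6 (r = 0.983), Speer8-ps1 for Ccl9 (r = 0.966) and Glrp1 for Ccl24 (r = 0.990). These values are descriptions without a test, and the arrays compared share slides and genotypes.

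Of the 11 other CC ligands listed, 4 were tested, and 0 were called between genotypes. The smallest unadjusted p belonged to Ccl19, a ligand of Ccr7, at -0.29 ± 0.16 and to Ccl25, a thymic and gut ligand of Ccr9, at -0.26 ± 0.19. Between slides Ccl17, a ligand of Ccr4 made by dendritic cells, was called lower (-5.46 ± 0.97) and Ccl27a, a skin ligand of Ccr10, higher (1.69 ± 0.13). Ccl11, Ccl20 and Ccl26 were above background on 0 arrays, Ccl1, Ccl22 and Ccl28 on some, and Ccl21a was not matched to a probe.

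Of 15 receptors 12 were tested and 0 called between genotypes (3 higher, 9 lower, median -0.50). The smallest unadjusted p belonged to Ccr10 (-1.07 ± 0.25), which was above background on 1 EP2KO array and 4 WT arrays, and to Ccr8, the mouse receptor of Ccl8 (-0.38 ± 0.18). Receptors of several members, chosen after their values were seen, stood at -0.72 ± 0.57 for Ccr2, -0.17 ± 0.42 for Ccr1 and 0.13 ± 1.04 for Ccr3. Between slides 2 receptors were called higher and 9 lower on slide 2, where 25.1% of all features were called higher and 18.2% lower. The largest of these were the scavenging receptors Ackr3 (-3.73 ± 0.41) and Ackr2 (-3.71 ± 0.26), followed by Ccr6 (-3.14 ± 0.37) and Ccr7 (-3.13 ± 0.23).

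All 10 proteases and matrix partners, which trim chemokines or hold them on cell surfaces, were tested and 0 called between genotypes. Ext1, an enzyme of heparan sulfate chains, stood at -0.28 ± 0.16 and Dpp4, which cleaves the amino terminus of several chemokines, at -0.80 ± 0.75. Between slides 4 were called higher and 2 lower, where 43.2% of all features were called, with Mmp12 (2.78 ± 0.77) and Sdc1 (2.16 ± 0.21) the largest higher and Mmp9 (-2.49 ± 0.32) and Dpp4 (-2.01 ± 0.21) the largest lower differences. Of the 20 inducers downstream of LPS 18 were tested and 0 called between genotypes (4 higher, 14 lower, median -0.09). Irf7, an interferon regulatory factor, stood at 0.41 ± 0.28 and Myd88, the adaptor of Tlr4, at -0.23 ± 0.22. Between slides 3 were called higher and 6 lower, against the same 43.2%, with Il1b (-2.80 ± 0.26), Jun (1.97 ± 0.29), Nfkbia (-1.94 ± 0.15) and Cd14 (-1.24 ± 0.16) the largest.

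Of the remaining marker lists, none had a member called between genotypes over all 8 arrays, and on slide 2 the B cell marker Jchain was called lower in EP2KO (-6.48 ± 0.48, adjusted p = 0.0142 by limma). The median genotype difference was -0.61 over 5 monocyte markers, -0.25 over 6 neutrophil markers, -0.47 over 5 B cell markers and -0.48 over 5 dendritic cell markers. Between slides 4 of each of these lists were called lower (18.2% of all features), and 1 neutrophil marker higher (25.1% of all features). The medians over the macrophage identity list, the large resident peritoneal macrophage list and the mast cell and eosinophil list were 0.02, 1.30 and 1.33, and those over the T and NK cell list and the fibroblast and mesothelial list were -0.74 and -1.15.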

How the data were processed

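The authors deposited 1 scanner file per array with the intensity of each spot, extracted with Feature Extraction 10.7.1.1 per the file headers (version 9.1 per the submitters' processing notes). Its processed signal is background-corrected per the file headers, without scaling across arrays. The authors' series table repeats these intensities (largest log2 difference 0). From these, log2 values were computed and each array's 75th percentile over all gene spots was subtracted. The 1377 control spots among 44397 and all outlier-flagged spots were dropped, and the mean was taken over the spots of each of 39429 probes. RefSeq transcripts (GRCm38.p6) named 27508 probes. The filter required a probe to be well above background on 4 of 4 arrays in either genotype, and the brightest kept probe stood for its gene (14493 named genes and 6245 unnamed probes).

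Tests used limma 3.58.1 in R 4.3.3 (lmFit, eBayes), two-sided, with Benjamini-Hochberg adjustment over all features at 0.05. Slides were read from the file headers. Between arrays of equal replicate number the deviations from the genotype mean had r = 0.736, 0.121, 0.553 and 0.428 for numbers 1 to 4. Each such pair also shares a slide, and arrays of unequal number were not compared, so these values cannot show a pairing by number. By the rule of every r above 0.1 the number served as a block in an alternative. On simulated data of 20707 features the genotype fit recovered 24%, 68% and 86% of changes of 2-fold, 4-fold and 8-fold size, and the interaction 4%, 58% and 70%. The changed features were drawn at random, with normal noise. For the genotype fit the difference put in was equal on both slides, and for the interaction it differed between the slides. For 8 members 87.0% to 97.8% of features had a smaller SD, and recovery for genes of such spread was not simulated.

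The members, gene lists and tests were chosen with earlier results of these data known. Named were all members, Ptger2, up to 4 called genes per list by size or else the 2 with the smallest unadjusted p, and the 3 genes most like each member. Some genes that these rules name are not reported here. Fits within slides over the 4 groups were chosen after seeing the data. The normexp alternative (offset 50) used the median spot signal, there being no mean. No protein sequences were given, so protein identity between members was not computed.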

Additional observations from a re-analysis of the deposited data

How the results depend on the processing

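The genotype count of 2 features became 4 with array weights, the slide as a block or as a random block, 0 with the replicate block, 0 on slide 1 alone, 217 on slide 2 alone, 4 and 195 on slides 1 and 2 with pooled spread, and 0 to 4 with 1 array left out. The list median was 0.18 on slide 1 in both fits, and -0.64 to -0.21 with 1 array left out. The interaction count of 3 became 5 with median scaling, 46 with normexp, 1 without the filter on dim probes, 14 with probes above background on all 8 arrays, 11 with a trended robust variance, 1 with array weights, 0 with the replicate block and 0 to 1442 with 1 array left out (1442 without WT 1, 80 without WT 4). The slide 2 count of 195 became 99 with quantile scaling, 56 without the filter, 358 with the trended robust variance, 114 with array weights, 37 with the replicate block and 0 to 619 with 1 array left out (2 without WT 3, 0 without WT 4 or EP2KO 4). Genotype differences turned sign for Ccl3 with array weights (-0.37) and on slide 2 (-0.26), and ran from -0.23 to 0.72 with 1 array left out; for Ccl4 on slide 1 (0.096), with -0.77 (without WT 2) to 0.067 (without WT 3); on slide 1 for Ccl2 (1.38), Ccl7 (0.82) and Ccl8 (0.26), and on slide 2 for Ccl24 (-0.29). Slide differences turned for Ccl2 with array weights (-0.71), with -0.33 to 1.00 when 1 array was left out, and for Ccl8 without EP2KO 4, with -0.95 to 0.15; Ccl12 passed with array weights (-2.05, adjusted p = 0.0275). Interactions turned for Ccl6 (-0.23 with quantile scaling, -0.27 with normexp) and Ccl9 (-0.36 and -0.34, and -0.081 to 0.249 with 1 array left out). Slide 2 differences turned with median scaling for Ccl3 (0.0090), Ccl6 (0.20) and Ccl9 (0.14), and with 1 array left out ran from -0.18 to 0.042 for Ccl6 and from -0.29 to 0.037 for Ccl9. The cause of these changes was not tested; values on 1 slide or without 1 array rest on fewer arrays. The replicate block changed no call of a member other than Ccl12 on slide 2; it cannot be estimated for the slide comparison. Ccl12 was not tested with probes above background on all 8 arrays, since EP2KO 3 was not, and its signal near background limits the size of its difference.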
